A study of Mus musculus with 12 samples.

Results

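Intermediate filaments are tough cytoskeletal fibres whose subunits differ from one cell type to the next. Neurofilaments, built from the light (*Nefl*), medium (*Nefm*) and heavy (*Nefh*) subunits, fill axons, and α-internexin (*Ina*) co-assembles with them in neurons. Peripherin (*Prph*) is the filament protein of peripheral and autonomic neurons. Vimentin (*Vim*) is found in glia, vessels and mesenchymal cells, nestin (*Nes*) in progenitors and some vessel cells, and glial fibrillary acidic protein (*Gfap*) in astrocytes and some Schwann cells. These 8 genes were chosen by symbol among the 32289 features of the count tables, and all 8 had UMIs (unique molecular identifiers, each standing for 1 captured mRNA molecule). They were followed across the cell classes and conditions of the superior mesenteric ganglion (SMG), a sympathetic ganglion of the abdomen.

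Each single-cell RNA library was made from the SMG of 1 mouse. There were 1 wild-type mouse (WT) and 10 Th-MYCN+/- hemizygotes (#1 to #10) aged 3 weeks and 1 Th-MYCN+/- hemizygote aged 6 weeks, all of the 129+Ter/SvJcl strain. Th-MYCN mice carry human *MYCN* under a rat tyrosine hydroxylase promoter, so that the transgene is driven in catecholaminergic cells and is counted as its own feature. The 6-week-old ganglion was taken because a tumor was visible after dissection. With 1 mouse in the WT and 6-week groups, tests were run only within the 10 3-week-old Th-MYCN+/- mice.

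After cell calling and quality filters 12028 cells remained, 522 to 1845 per 3-week-old Th-MYCN+/- library, from libraries of 1444554 to 6388766 UMIs. The WT library gave 618 cells from 1147772 UMIs and the 6-week library 945 cells from 4824039 UMIs. Clusters, built without the 8 genes and the transgene, were named from marker lists as neuroblast-like (5238 cells, median 2721 UMIs), ganglion-like (2756 cells, 1144 UMIs), Schwann-like (2884 cells, 948 UMIs), endothelial-like (530 cells, 1062 UMIs) and 4 smaller classes. In the 10 mice the transgene averaged 307 ± 148 CPM (SD) in neuroblast-like and 3.01 ± 3.11 CPM in ganglion-like cells. Library #2 stood apart, with 38.8% of its UMIs in cells, 81.9% ganglion-like cells and 6 Schwann-like cells. Leaving it out changed no call of the 8 genes below, and the comparison by cell cycle phase did not hold it in the first place. The 45 WT cells that fell into neuroblast-like clusters held no transgene and no *Dlk1* UMI, and 3 of them carried all 280 of their *Prph* UMIs, so they go against that name and were not compared. Libraries shared 92 barcodes, carried by 185 cells (1.54%). Pairs of libraries shared 0 to 6 barcodes, where random picks from the barcode list would give 0.435 to 3.68 per pair. The doublet caller marked 53 cells (0.441%), too few to rely on, so doublets were left in, and removing the highest 5% of its scores was tried as an alternative. RNA free in the suspension was estimated at 1.61 to 10.0% of the UMIs of glial and vessel cells.

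*Nefl* (ENSMUSG00000022055) lies at chr14:68083863-68089095 on the plus strand of GRCm38, inside the span of *Nefm* (ENSMUSG00000022054, chr14:68082590-68124846, minus strand), and the pair share 1108 exonic bases. *Ina* (ENSMUSG00000034336, chr19:47014698-47025327, plus strand) shares 456 exonic bases with *Nt5c2* on the other strand. Whether the counting used strand is not stated in the sources used, and without strand reads of such overlaps cannot be told apart. *Nefh* (ENSMUSG00000020396, chr11:4938754-4948064, minus strand), *Prph* (ENSMUSG00000023484, chr15:99055174-99058978, plus strand), *Vim* (ENSMUSG00000026728, chr2:13573927-13582826, plus strand) and *Nes* (ENSMUSG00000004891, chr3:87971078-87980451, plus strand) overlap no other annotated gene. *Gfap* (ENSMUSG00000020932) spans chr11:102887336-102900912 on the minus strand and shares no exonic base with its neighbours.

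The promoters of *Ina* and *Prph* are shown because both genes encode neuronal filament subunits and yet moved in opposite directions between the neuroblast-like and ganglion-like cells. Of the 8 genes, *Ina*, *Prph*, *Vim*, *Nes* and *Gfap* were matched to RefSeq starts (GRCm38.p6), and *Nefl*, *Nefm* and *Nefh* were not. The 250 bases before each start run 5′ to 3′ on the plus strand, at chr19:47014431-47014680 for *Ina* and chr15:99054924-99055173 for *Prph*, with the motif matches in capitals.

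Ina: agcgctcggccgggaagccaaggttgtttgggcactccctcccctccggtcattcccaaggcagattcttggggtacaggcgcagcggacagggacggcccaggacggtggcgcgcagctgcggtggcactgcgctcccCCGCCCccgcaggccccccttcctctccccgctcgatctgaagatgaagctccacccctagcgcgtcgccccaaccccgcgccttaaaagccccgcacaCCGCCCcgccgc
Prph: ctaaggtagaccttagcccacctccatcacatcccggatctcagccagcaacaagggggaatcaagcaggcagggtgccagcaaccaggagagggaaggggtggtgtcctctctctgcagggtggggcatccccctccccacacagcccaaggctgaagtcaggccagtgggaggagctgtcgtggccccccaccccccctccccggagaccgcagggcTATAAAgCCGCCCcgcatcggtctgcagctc

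The *Ina* stretch holds the GC box CCGCCC at 111 and at 12 bases before the start and is 70.8% G and C. The *Prph* stretch holds a TATA box (TATAAA, searched on the gene's strand) 31 bases before the start and a GC box 24 bases before it, and is 65.2% G and C. Of 32851 promoter windows, 7.59% held the TATA box and 32.7% the GC box on either strand. The E-box CACGTG, the best-known MYCN core sequence, was in 6.02% of all windows and in none of the 5 listed here. None of these motifs overlaps another in the 2 stretches, and a match in letters is a description only.

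The question first addressed was which filament gene each class of the ganglion used. Levels are given as CPM, counts per 1000000 UMIs summed over all cells of a class in a mouse, as mean ± SD over the 10 3-week-old Th-MYCN+/- mice. The method tags each molecule once at its 3′ end, so CPM of different genes are not scaled by length, although capture may differ between genes. The filament UMIs of neuroblast-like cells were mainly *Nefl*, those of ganglion-like cells mainly *Prph*, and those of Schwann-like and endothelial-like cells mainly *Vim*. *Nefl* made up 59.5% ± 6.8 of the 8 genes' UMIs in neuroblast-like cells (n = 10), followed by *Nefm* with 15.2%, *Prph* with 10.1% and *Ina* with 9.16%. In ganglion-like cells *Prph* held 66.0% ± 4.0 and *Nefl* 18.7% ± 5.1. *Vim* held 92.6% ± 7.2 in Schwann-like cells (n = 9) and 87.7% ± 13.9 in endothelial-like cells (n = 9, 54.5 to 97.7% over mice). The summed level of the 8 genes was 3935 ± 874 CPM in neuroblast-like, 5197 ± 1692 CPM in ganglion-like and 3887 ± 1063 CPM in Schwann-like cells, and the spans of mean ± 1 SD overlapped.

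**Figure D1:**
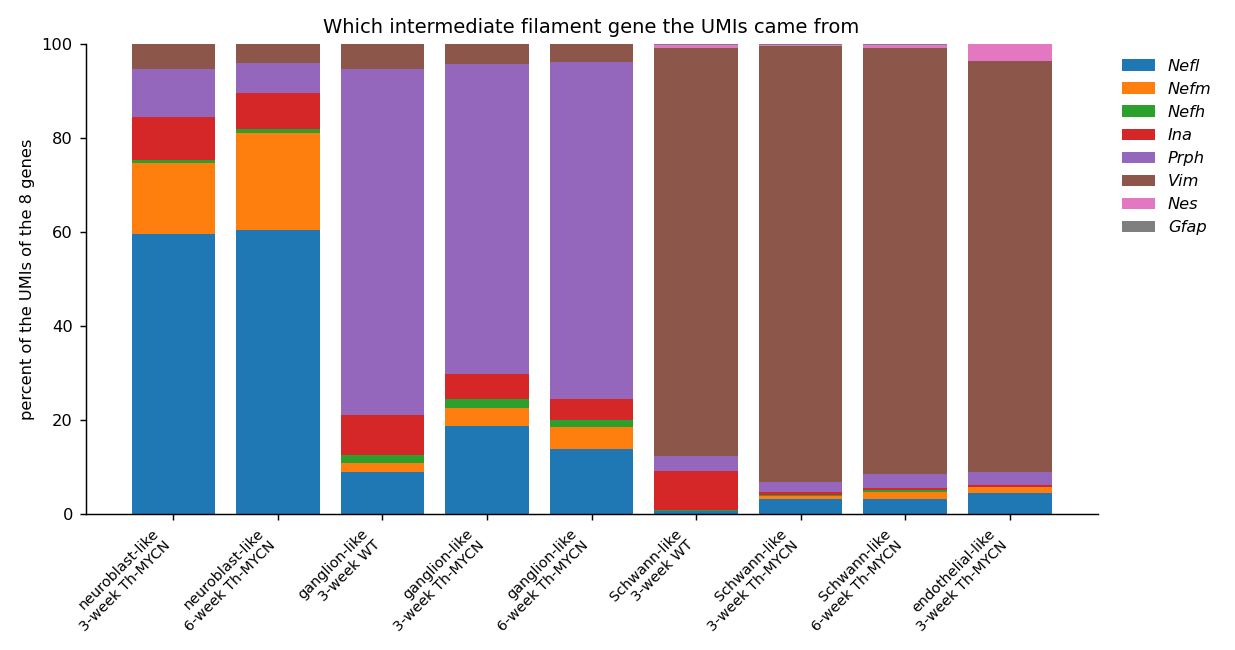
Stacked bars give the percent of the UMIs of the 8 genes that came from each gene, by class (x axis) and group; bars of the 3-week-old Th-MYCN+/- group are means over mice, the others 1 mouse each. Nefl fills 59.5% of the neuroblast-like bar, Prph 66.0% of the ganglion-like bar and Vim 92.6% of the Schwann-like bar.

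*Nefl* was the most abundant neurofilament subunit in both neural classes. In neuroblast-like cells it ranged from 1540 CPM in the lowest mouse over a median of 2231 to 3047 CPM, and in ganglion-like cells from 191 over 881 to 2283 CPM. Ranges of the 2 classes overlapped, but *Nefl* was higher in the neuroblast-like cells of 10 of 10 mice. The difference was 1.398 ± 0.215 (log2, SE; adjusted p = 2.9e-06, edgeR's quasi-likelihood test with the mouse as block and Benjamini-Hochberg adjustment, the test meant by every adjusted p here). *Nefm* ranged from 281 over 673 to 897 CPM in neuroblast-like and from 47.8 over 210 to 291 CPM in ganglion-like cells. It too was higher in the neuroblast-like cells of 10 of 10 mice, by 1.69 ± 0.21 on the log2 scale (adjusted p = 7.6e-08).

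*Nefh*, the subunit known to appear late in maturing axons, moved the other way. Its level was 13.3 to 37.0 CPM (median 23.1) in neuroblast-like and 55.3 to 189 CPM (median 71.1) in ganglion-like cells, and the ranges did not overlap. Neuroblast-like cells were lower in 10 of 10 mice, with a log2 difference of -1.77 ± 0.21 (adjusted p = 6.2e-08). The highest ganglion-like value, 189 CPM in #5, rests on 1 cell with 67 of the 141 UMIs. Without #5 the next value was 95.9 CPM.

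*Ina* differed least among the neuronal filament genes in this comparison. It ranged from 118 over 374 to 526 CPM in neuroblast-like and from 147 over 276 to 357 CPM in ganglion-like cells. The log2 difference was 0.55 ± 0.16 in favour of neuroblast-like cells (adjusted p = 0.004), which were higher in 9 of 10 mice.

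*Prph* showed the widest gap between the neural classes. Ganglion-like cells held 1472 to 5315 CPM (median 3431) and neuroblast-like cells 134 to 831 CPM (median 310), so the lowest ganglion-like mouse exceeded the highest neuroblast-like one. The level was 8.99-fold lower in neuroblast-like cells (log2 difference -3.17 ± 0.21, adjusted p = 8.8e-13, lower in 10 of 10 mice). The study named peripherin a marker of a neuroblast state on these same samples, so its pattern here is not independent evidence. It also reported cells with *MYCN* and *Prph* signal by RNA in situ hybridization, which waned with age, and stained tissue for the protein. Those experiments are not part of the counts used here. In this comparison 6 of the 8 genes passed the filter on low counts, of which *Nefl*, *Nefm* and *Ina* were higher and *Nefh* and *Prph* lower in neuroblast-like cells. Over all 10519 genes tested 33.6% were called higher and 31.7% lower (65.3% in all), so the number of calls among the 6 genes is close to the background. Non-overlapping ranges with neuroblast-like cells lower, as for *Nefh* and *Prph*, were seen for 7.59% of genes.

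**Figure D2:**
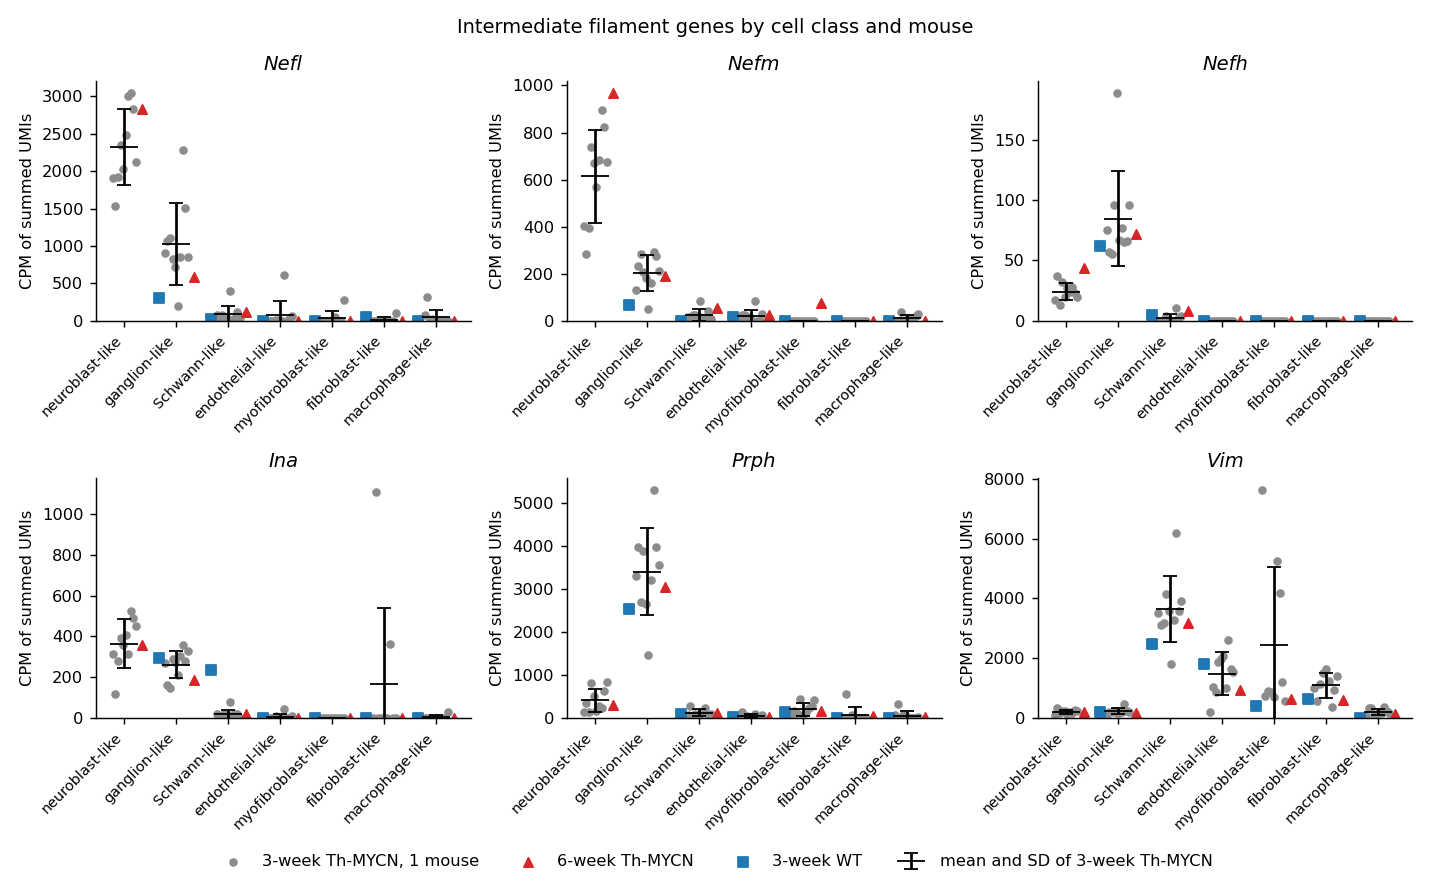
CPM of 6 genes (y axes, each its own linear scale from 0) by cell class (x axes). Grey points are the 3-week-old Th-MYCN+/- mice, black bars their mean and SD, blue squares the WT mouse and red triangles the 6-week-old mouse; an SD bar reaching below 0 is cut. Nefl and Nefm are highest in neuroblast-like cells, Nefh and Prph in ganglion-like cells, and Vim in Schwann-like cells on average.

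*Vim* was not called different between the neural classes. It stood at 86.9 to 333 CPM in neuroblast-like and 96.9 to 470 CPM in ganglion-like cells, higher in the former in 6 of 10 mice. The log2 difference was 0.07, with a 95% interval from -0.27 to 0.42 and an adjusted p of 0.714. *Nes* had 1 UMI in all neuroblast-like and 6 in all ganglion-like cells of the 10 mice, and *Gfap* 3 and 2, and neither was tested here.

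Schwann-like cells, the glia of the ganglion, were set against both neural classes. Their *Vim* level ran from 1800 over 3544 to 6202 CPM, above every neural value. *Vim* was 19.2-fold lower in neuroblast-like cells (log2 difference -4.26 ± 0.29, adjusted p = 9.7e-14) and 19.3-fold lower in ganglion-like cells (-4.27 ± 0.25, adjusted p = 8.2e-17), each in 10 of 10 mice. All 5 neuronal filament genes were higher in neuroblast-like than in Schwann-like cells, by log2 4.96 ± 0.34 for *Nefl*, 4.59 ± 0.27 for *Nefm*, 2.97 ± 0.45 for *Nefh*, 4.50 ± 0.32 for *Ina* and 1.98 ± 0.28 for *Prph* (largest adjusted p = 1.1e-06). Against Schwann-like cells ganglion-like cells were higher in the same 5 genes, with the largest log2 differences in *Prph* (5.00 ± 0.25, 31.9-fold) and *Nefh* (4.83 ± 0.41, 28.5-fold). The other 3 differed by 3.55 ± 0.38 (*Nefl*), 2.82 ± 0.31 (*Nefm*) and 3.91 ± 0.34 (*Ina*). In this comparison *Ina* passed the filter on low counts only through the ganglion-like sums, so its direction was fixed. *Nefh* had 6 UMIs in Schwann-like cells, against 331 in neuroblast-like and 735 in ganglion-like cells. It passed the filter on low counts only through the neural sums, so both of its calls here had their direction fixed. *Nes* had 39 UMIs in Schwann-like cells against 1 in neuroblast-like cells and was called lower in the latter (adjusted p = 1.8e-09). It passed the filter on low counts only through the Schwann-like sums, so this call had its direction fixed.

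Against the background, *Nes* and *Nefh* aside, *Nefl*, *Nefm*, *Ina*, *Prph* and *Vim* were all called between neuroblast-like and Schwann-like cells. Over all genes there, 34.0% of 8829 were called higher and 34.2% lower (68.2% in all). Between ganglion-like and Schwann-like cells the same genes were called, *Ina* with its direction fixed. There 31.0% of 5669 genes were higher and 37.8% lower (68.8% in all). With DESeq2's size factors in place of TMM this last split was 2246 genes higher against 1769 lower, in place of 1759 against 2142. The calls of these genes stood. With *Nefh* again left aside, ranges over mice did not overlap for *Nefl*, *Nefm* and *Ina* in the first comparison (13.4% of genes, higher). In the second, with *Ina* left aside too, they did not overlap for *Prph* (13.3%). For *Vim*, lower in the neural class, the ranges did not overlap in either comparison (4.32% and 5.15% of genes).

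Neuronal filament UMIs in Schwann-like cells were few and uneven. *Prph* stood at 113 ± 80.4 CPM (n = 10), from 36.3 to 282 CPM, and *Nefl* at 83.3 ± 116 CPM, from 0 to 399 CPM. In #6, the mouse with the highest *Nefl* value, 45 of the 47 *Nefl* UMIs came from 1 cell. The free RNA of the 10 libraries held 365 to 3028 CPM of *Prph* and 752 to 1522 CPM of *Nefl*. With the free RNA subtracted the Schwann-like means were 75.3 CPM of *Prph* and 55.2 CPM of *Nefl*, and the source of the remainder was not tested. The 14 ganglion markers, none of them at 0, summed to 1333 to 3386 CPM in these cells.

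Among the supporting cells, *Vim* was higher in Schwann-like than in endothelial-like cells. The latter held 183 over 1589 to 2609 CPM, and the ranges overlapped. The log2 difference was 1.45 ± 0.27 (adjusted p = 1.9e-05), with Schwann-like cells higher in 9 of 10 mice. *Nes* went the other way, at 12.9 ± 9.90 CPM in Schwann-like cells (39 UMIs) and 71.5 ± 72.5 CPM in endothelial-like cells (34 UMIs). The log2 difference was -1.78 ± 0.48 (adjusted p = 0.0019, endothelial-like cells higher in 9 of 10 mice). *Nes* passed the filter on low counts only through the endothelial-like sums, so this call had its direction fixed. *Prph* was 1.44 ± 0.37 higher in Schwann-like cells on the log2 scale (adjusted p = 0.0011), on 201 and 24 UMIs. *Nefl* differed by 1.05 with a 95% interval from -0.30 to 2.39 (adjusted p = 0.199). In all, 4 genes were tested, with *Vim* and *Prph* called higher and *Nes* called lower with its direction fixed. Of all 3976 genes, 25.5% were called higher and 24.5% lower.

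*Vim* also appeared in the smaller classes. Fibroblast-like cells held 1079 ± 422 CPM (n = 9) and macrophage-like cells 198 ± 105 CPM (n = 10), the latter close to the neural level. Myofibroblast-like cells held 563 to 7641 CPM (n = 9, median 881), but in #1 22 of 25, in #7 90 of 115 and in #8 30 of 36 *Vim* UMIs came from 1 cell. Leaving aside the NKT-like cells, with sums of at least 5 cells in 2 mice, in falling order of the means *Vim* ran from Schwann-like over myofibroblast-like, endothelial-like and fibroblast-like to ganglion-like, neuroblast-like and macrophage-like cells, and only the step from fibroblast-like to ganglion-like cells exceeded the SDs of both neighbours. *Gfap* was near its detection limit, with 8 UMIs in the Schwann-like cells of the 10 mice (0 to 35.2 CPM over mice) and 0 in endothelial-like cells.

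Shares of cells with a UMI were compared after thinning each cell to 1000 UMIs, since classes differ in depth; this left out 1786 of 4833 neuroblast-like, 1070 of 2521 ganglion-like and 1114 of 2201 Schwann-like cells of the 10 mice. At that depth 83.8% ± 3.6 of neuroblast-like cells had a *Nefl* UMI and 40.9% ± 9.6 a *Nefm* UMI (n = 10; 77.5% and 56.6% over all cells unthinned). *Prph* was seen in 85.4% ± 8.6 of ganglion-like cells (89.5% unthinned) and in 13.2% ± 5.2 of neuroblast-like cells (19.5% unthinned). *Vim* was seen in 95.8% ± 1.7 of Schwann-like cells (n = 9; 88.2% unthinned), 64.1% ± 20.2 of endothelial-like cells (n = 9; 63.9% unthinned) and 13.8% ± 3.2 of neuroblast-like cells (23.8% unthinned). For comparison, 4.19% ± 3.12 of Schwann-like cells had a *Nefl* UMI and 6.57% ± 2.22 a *Prph* UMI at the same depth (3.68% and 6.36% unthinned). Schwann-like cells should lack these neuronal genes, so a share near theirs is not read as expression, although free RNA accounted for only part of their level (above).

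Within neuroblast-like cells the subunits were not spread alike. A *Nefm* UMI was found in 44.1% ± 8.3 of cells with a *Nefl* UMI and in 35.4% ± 11.9 of those without, higher in 8 of 9 mice. *Nefh* was found in 1.34% ± 0.66 of *Nefm*-positive and 4.38% ± 4.49 of *Nefm*-negative cells, higher in the former in 0 of 10 mice. These shares rest on 20 and 49 cells with a *Nefh* UMI. *Vim* was seen in 25.1% ± 10.5 of *Prph*-positive cells and 11.7% ± 3.0 of the others, higher in 8 of 9 mice. By cluster, the neuroblast-like cluster led by *Cartpt* and *Dlk1* held the most *Ina* (506 ± 204 CPM, n = 10), against 323 ± 93.4 and 305 ± 114 CPM in the 2 clusters led by cell cycle genes. The 3 ganglion-like clusters held 2858 ± 944 to 3725 ± 528 CPM of *Prph* and differed by about their SDs.

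Neuroblast-like cells were next compared by cell cycle phase, called from S and G2M gene lists that contain none of the 8 genes, on cells of at least 1000 UMIs in the 9 mice with at least 5 cells in each group. Cycling cells held more *Nefl* and *Nefm* and less *Prph* and *Ina* than cells in G1. *Nefl* was 2674 ± 482 CPM in S or G2M cells and 1832 ± 349 CPM in G1 cells, higher in 9 of 9 mice (log2 difference 0.60 ± 0.07, adjusted p = 2.3e-06). *Nefm* was 738 ± 201 against 424 ± 121 CPM (0.85 ± 0.09, adjusted p = 4.5e-07, higher in 9 of 9 mice). *Prph* ranged from 65.9 to 226 CPM in S or G2M cells and from 339 to 2155 CPM in G1 cells without overlap, a log2 difference of -3.00 ± 0.18 (adjusted p = 5.9e-11), and of -3.73 with free RNA subtracted. *Ina* was 367 ± 85 against 490 ± 159 CPM (-0.34 ± 0.10, adjusted p = 0.0136, lower in 9 of 9 mice), a call lost without the filter on low counts (-0.26, adjusted p = 0.0759). *Nefh* differed by -0.45 ± 0.21 (adjusted p = 0.116), with a 95% interval from -0.89 to -0.002. Calls were thus 2 higher and 3 lower among 6 genes tested, where 16.2% of 8727 genes were called higher and 17.8% lower (34.0% in all), and non-overlap with cycling cells lower, as for *Prph*, was seen for 1.56% of genes.

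**Figure D3:**
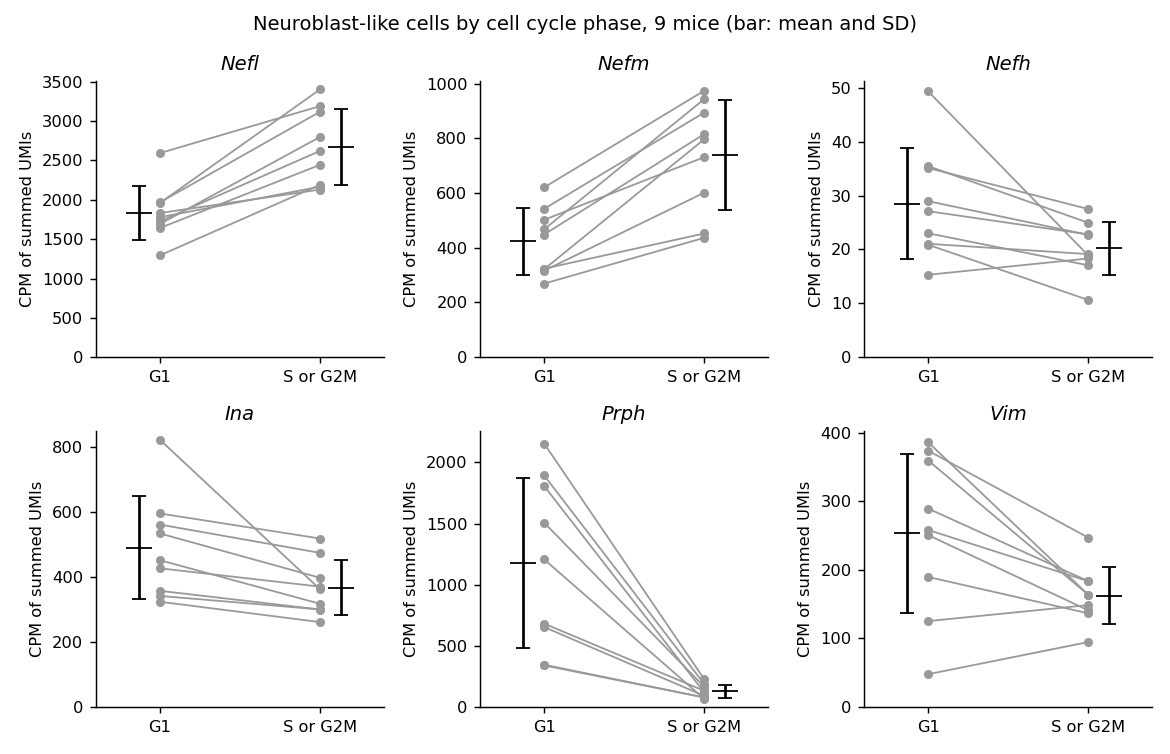
CPM of 6 genes (y axes, linear from 0) in G1 and in S or G2M neuroblast-like cells (x axes). Each grey line joins the 2 values of 1 of 9 mice and black bars are mean and SD. Nefl and Nefm rise in every line towards S or G2M, Prph falls in every line, and Vim falls in 7 of 9.

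*Vim* was called lower in cycling cells (162 ± 42 against 254 ± 116 CPM, -0.46 ± 0.17, adjusted p = 0.0376, lower in 7 of 9 mice), but the call was lost under 7 of 12 alternatives (adjusted p 0.0566 to 0.9504 there). Of these 12, requiring 10 cells per sum and leaving out #2 only repeat the main fit. Markers of other classes moved with phase. The 14 ganglion markers summed to 7310 ± 4632 CPM in G1 and 1877 ± 212 CPM in S or G2M cells (ranges 2673 to 14707 and 1651 to 2362), and all 14 were lower in cycling cells, *Npy* by -4.28 ± 0.29 on the log2 scale. The 13 Schwann markers summed to 1211 ± 986 CPM in G1 (232 to 3142) and 256 ± 114 CPM in cycling cells (145 to 516), and all 13 were lower. None of either list was at 0. When neuroblast-like cells with an *Npy* UMI were left out, a choice made after seeing the data, *Prph* stayed lower in cycling cells (92.3 against 433 CPM, -2.01 ± 0.24, adjusted p = 2.8e-06), and the call of *Vim* was lost (-0.03, adjusted p = 0.9504). *Nefl* and *Nefm* stayed higher, by 0.45 and 0.42, *Nefm* in 7 of 9 mice. The part of the Schwann markers in the results was not tested.

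Cells were then grouped by their *Prph* UMIs among 1000, over the 3047 neuroblast-like cells deep enough. None was found in 2646 cells, 1 in 231, 2 to 4 in 140 and 5 or more in 30 cells from 9 mice. The share in S or G2M phase was 78.5% with no *Prph* UMI, 66.2% with 1, 38.6% with 2 to 4 and 6.67% (2 of 30) with 5 or more. Over the same groups *Npy*, a neuropeptide of sympathetic neurons, was seen in 4.50% of the first, 13.0% of the second and 63.3% of the last group and *Dbh*, which makes noradrenaline, in 15.8%, 26.4%, 32.9% and 56.7%. The transgene was seen in 26.7%, 16.9%, 17.1% and 10.0% of cells. *Vim* averaged 0.141 UMIs per 1000 in cells without and 0.833 in cells with 5 or more *Prph* UMIs, while *Nefl* averaged 2.46 and 1.67. These are shares over pooled cells, given as a description, and the deepest group had a median of 6920 UMIs before thinning against 4116 in cells without *Prph*.

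**Figure D4:**
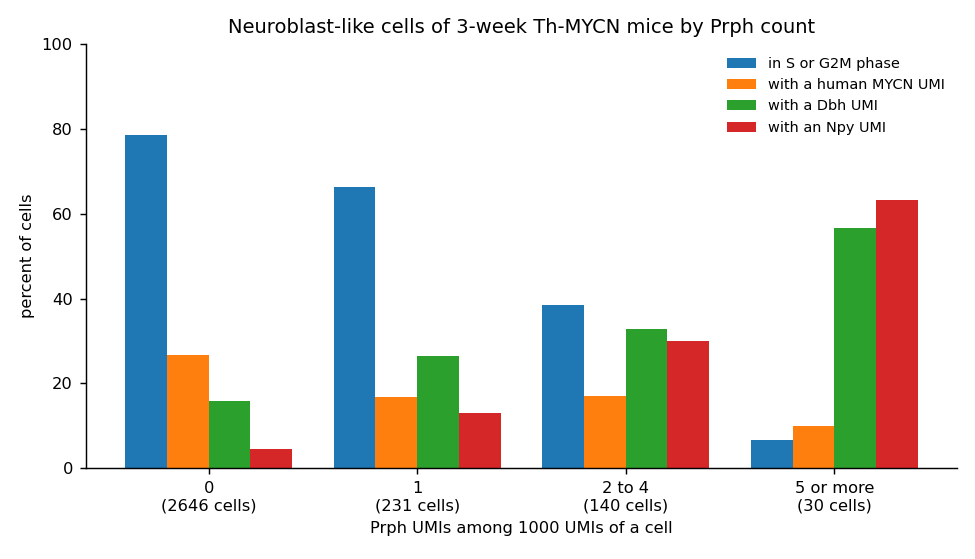
Percent of neuroblast-like cells (y axis, 3-week-old Th-MYCN+/- group) that were in S or G2M phase or had a UMI of the transgene, Dbh or Npy, by the number of Prph UMIs among 1000 UMIs of the cell (x axis, cell numbers in brackets). The S or G2M bar falls from 78.5% to 6.67% and the Npy bar rises from 4.50% to 63.3%.

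The share of *Prph*-positive cells was also compared between neuroblast-like cells with a transgene UMI and Schwann-like cells, a class that should lack peripherin. The Schwann-like share is not a measure of free RNA alone, and before thinning the Schwann-like cells were the shallower set, with a median of 1167 against 3970 UMIs in #1, for example. In the 9 mice with enough cells (#2 was left out) *Prph* was seen in 10.8% ± 4.3 of transgene-positive neuroblast-like cells and 6.57% ± 2.22 of Schwann-like cells. The difference was 4.26 ± 4.75 points (SD) and was above 0 in 7 of 9 mice (p = 0.0313 by an exact permutation over the signs of the 9 differences, two-sided, which cannot go below 0.0039). The call was lost when the cells of highest doublet score were removed (4.35 points, exact permutation p = 0.0859) and when 2 transgene UMIs were required (3.08 points, exact permutation p = 0.102). In the 6-week-old mouse the order was the other way, with 5 of 219 (2.28%) transgene-positive and 18 of 219 (8.22%) Schwann-like cells.

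**Figure D5:**
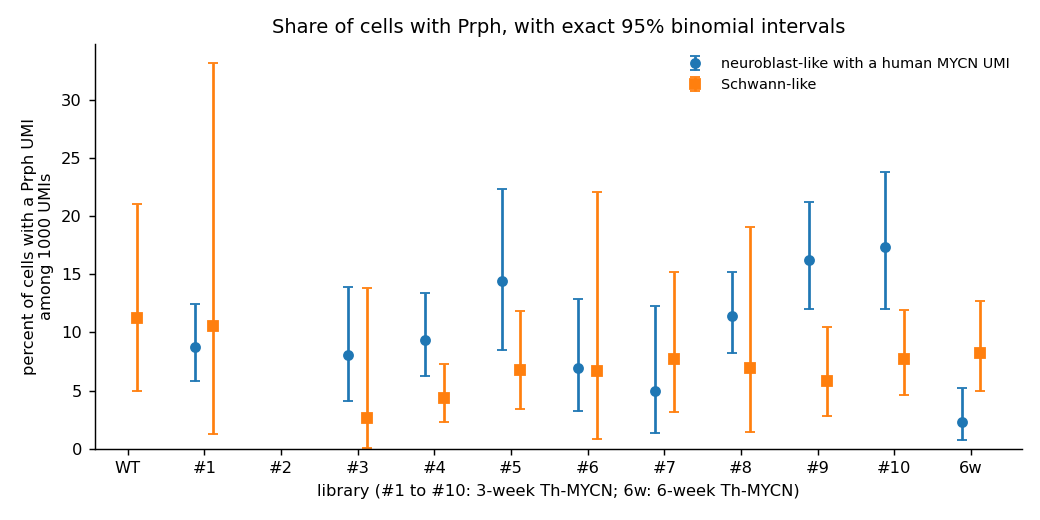
Percent of cells with a Prph UMI among 1000 (y axis) per library (x axis), for neuroblast-like cells with a transgene UMI (circles) and Schwann-like cells (squares), with 95% exact binomial intervals; sets under 5 cells are not drawn. Circles lie above squares in 7 of the 9 3-week-old mice that have both, and below in the 6-week-old mouse.

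Across conditions only single mice could be set against the 3-week-old Th-MYCN+/- range, with no test. In the 6-week-old mouse neuroblast-like cells held 970 CPM of *Nefm* (95% Poisson interval for counting error 927 to 1015), above the highest 3-week value of 897 CPM. *Nefh* there was 43.8 CPM (35.0 to 54.2), above 37.0 CPM, although the interval includes that value. The other 4 genes with enough UMIs lay within the 3-week range, at 2835 CPM for *Nefl*, 357 for *Ina*, 301 for *Prph* and 190 for *Vim*. Of 10624 genes 4.72% lay above and 7.55% below the range of the 10 mice in these cells. *Prph* was seen in 11 of 272 of these cells after thinning (4.04%, 95% exact interval 2.04 to 7.12%), below the 6.36 to 20.2% of the 10 mice, although the interval reaches into that range. The 2 cells with 5 or more *Prph* UMIs after thinning had a median of 28340 UMIs, and since the share and the CPM differ in their place, no order is read from them.

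Ganglion-like cells of the single WT mouse lay within the range of the 10 transgenic mice for all 6 genes tested. They held 2536 CPM of *Prph* (2352 to 2731), 308 of *Nefl* (246 to 380), 65.1 of *Nefm*, 61.5 of *Nefh*, 293 of *Ina* and 181 of *Vim*, and over all genes 9.85% lay above and 7.10% below that range. *Nefl* and *Nefm* were in its lower part, below the 3-week medians of 881 and 210 CPM. The 6-week-old mouse was within the range as well, with 3040 CPM of *Prph* and 587 of *Nefl* (background 3.63% above and 2.18% below). Different clusters held most ganglion-like cells, since 1374 cells form a cluster led by *Npy* and *Htr3a* that came mostly from #2, while most of those of the WT and 6-week-old mice lay in the other 2.

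In Schwann-like cells *Vim* was 2470 CPM (2273 to 2680) in the WT and 3165 CPM (3009 to 3326) in the 6-week-old mouse, within the 1800 to 6202 CPM of the 10 mice. *Prph* was 89.9 and 104 CPM, also within. WT *Ina* was 235 CPM, above the highest transgenic value of 76.4 CPM, but all 55 UMIs came from 1 cell. In these cells 8.65% of genes lay above and 1.75% below the range in the WT mouse, and 4.43% and 1.23% in the 6-week-old mouse. Endothelial-like *Vim* was 1786 CPM in the WT and 912 CPM in the 6-week-old mouse, both within the range of the 10 mice, where 11.8% and 8.18% of genes lay above and 6.00% and 7.73% below.

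The genes whose level was most like that of each filament gene were sought over 42 sums per class and mouse (Pearson's r of log2(CPM + 10); sums of 1 mouse share a library, and r is a description). *Nefl* and *Nefm* both led with *Mab21l2* (r = 0.963 and 0.956), followed by *Bcat1* and *Ddx25* for *Nefl* and *Tfap2b* and *Apba2* for *Nefm*. *Nefh* led with *Nrsn2* (0.963), *Disp2* and *Syngr3*, and *Ina* with *Rbfox1* (0.973), *Cdk5r1*, which encodes an activator of the kinase CDK5, and *Bcat1*. *Prph* led with *Klc1* (0.955), a kinesin light chain, *Cend1* and *Fxyd7*, and *Vim* with *Timp3* (0.933), an inhibitor of matrix metalloproteinases, *Tgfbr3* and *Prss23*. Among the 8 genes themselves *Nefl* was closest to *Ina* (0.9497) and *Nefm* (0.927), *Nefh* to *Prph* (0.894), and *Vim* was negative with all 5 neuronal genes (-0.66 to -0.45). *Nes* and *Gfap* had under 200 UMIs and were not ranked.

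A list of 25 other filament genes and filament partners (desmin, synemin, keratins, lamins, plakins and regulators) was followed in the same fits. In neuroblast-like set against ganglion-like cells, 4 of 17 tested were higher and 10 lower (median log2 difference -0.64, against 0.04 over all genes, of which 33.6% were called higher and 31.7% lower). *Lmnb1*, a B-type lamin of the nuclear envelope, was 230 against 6.20 CPM (5.24 ± 0.27, adjusted p = 1.3e-14), and *Lmnb2* and *Bfsp1*, a lens filament gene, were also higher. *Krt18*, counted among the 4, had 111 UMIs in neuroblast-like cells of 6 mice and 0 in ganglion-like cells, so its direction was fixed by the filter. *Bfsp1* had so few UMIs in ganglion-like cells that it too passed the filter only through neuroblast-like cells, and its direction was fixed as well. Lower genes were led by the envoplakin gene *Evpl* (0.197 against 14.5 CPM), *Synm* (1.16 against 18.2 CPM, -3.57 ± 0.40), the small heat shock gene *Hspb1* (18.6 against 123 CPM, -3.27 ± 0.30) and the plectin gene *Plec* (11.97 against 66.3 CPM, -2.29 ± 0.24), each in 10 of 10 mice. Of these, *Evpl* (4 against 108 UMIs) and *Synm* (19 against 119 UMIs) passed the filter only through ganglion-like cells, which fixed their direction. Against Schwann-like cells 5 of 15 were higher and 7 lower in neuroblast-like cells (median -0.86 against -0.006, and over all genes 34.0% higher and 34.2% lower), with *Lmna* at 65.8 against 354 CPM and *Dst*, the dystonin gene, at 57.0 against 332 CPM. *Krt18* is among the 5, with 111 against 0 UMIs, so its direction was again fixed by the filter.

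In the other comparisons, 6 of 10 partner genes were higher and 4 lower in ganglion-like than in Schwann-like cells (median 0.74 against -0.12; over all genes 31.0% higher and 37.8% lower), among them *Hspb1* (2.36 ± 0.32) and *Cdk5*, a kinase gene (1.10 ± 0.21). Schwann-like cells were higher in 3 of 10 and lower in 4 than endothelial-like cells (median -0.59 against 0.04). Over all genes there 25.5% were higher and 24.5% lower. *Hspb1* reached 1374 CPM in the endothelial-like against 18.3 CPM in the Schwann-like cells. It passed the filter on low counts only through endothelial-like cells, as did others of the 4 lower genes, so their direction was fixed. By phase, 2 of 16 were higher and 5 lower in cycling neuroblast-like cells (median -0.40 against -0.02; over all genes 16.2% higher and 17.8% lower). *Lmnb1* was 288 against 69.6 CPM (2.18 ± 0.14, adjusted p = 2.8e-10) and *Lmnb2* 34.0 against 11.9 CPM, each higher in 9 of 9 mice. *Hspb1* was 1.85 against 33.8 CPM and *Krt8* 1.41 against 8.36 CPM. *Krt8* passed the filter on low counts only through G1 cells, so its direction was fixed. At its low level in cycling cells *Hspb1* probably did so too.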

How the data were processed

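The authors deposited raw UMI counts per gene and barcode, unfiltered, from Chromium 3′ libraries of 12 SMG samples. The submitters' notes name Cell Ranger, Seurat and mm10 with human *MYCN* added, and the matrix headers give software version 3.0.2; no annotation release is stated in the sources used. Cells were called with a Python implementation of the EmptyDrops procedure (FDR 0.01), kept with at least 200 genes, at most 10% mitochondrial and at most 60% ribosomal UMIs, and clustered with Seurat 5.3.0 and sctransform 0.4.2 (resolution 0.5). A cluster was named when at least 50% of a marker list, and at least 3 markers, were detected in 10% of its cells and 1.5-fold above the other clusters.

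UMIs were summed per mouse and class (at least 5 cells) and tested with edgeR 4.0.16 (quasi-likelihood, filterByExpr, TMM, mouse as block, Benjamini-Hochberg over all genes tested, FDR 0.05); sums of 1 mouse come from the same animal, which gives the pairing, and their deviations correlated at 0.0128 to 0.363. Each mouse is 1 library, and the spread between mice is both technical and biological. On simulated counts with 200 genes changed by 1.5 on the log2 scale, 183 of 195 tested were recovered for neuroblast-like against ganglion-like cells (10519 genes), with 20 false calls. Phase was scored with 43 S and 54 G2M genes after thinning; 492 of 3321 cells lay within 0.05 of the boundary. Free RNA was taken from barcodes of at most 100 UMIs and scaled by *Npy*, *Dbh* and *Th*. The alternatives tried were DESeq2 1.42.0, other size factors, no filter, no block, 10 cells per sum, a library left out, 500-UMI cell calling, other clustering, doublet scores and free RNA subtraction.

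The 8 genes and all lists were chosen with earlier results of these data known. Named were the 8 genes, the 3 genes most correlated with each that had 200 UMIs, up to 4 genes in each direction of the 25 listed partners, and marker genes where a result turned on them. Of the listed partners, 1 is counted but its values are not reported here. Count columns of other samples numbered 0.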

Additional observations from a re-analysis of the deposited data

Results flagged for a closer look

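In each of 34 sets the highest and lowest values were compared with their nearest neighbour by Dixon's criterion, which flags about 1 in 20 such sets by chance. The sets were one per gene and class over 10 mice, and one per gene and cell cycle phase of neuroblast-like cells over 9 mice. Flags fell on 6 values, all in sets per gene and class. In Schwann-like cells #6 was flagged for *Nefl* (399 CPM, next 119), *Nefm* (84.9 CPM, next 39.8) and *Ina* (76.4 CPM, next 20.2), where 45 of 47, 8 of 10 and 8 of 9 UMIs came from 1 cell. In endothelial-like cells #7 was flagged for *Nefl* (612 CPM, next 57.6), and all 15 UMIs came from 1 cell. In ganglion-like cells #5 was flagged for *Nefh* (189 CPM, next 95.9), with 67 of 141 UMIs in 1 cell. In the same class #8 was flagged for *Vim* (470 CPM, next 228), where the top cell held 10 of 79 UMIs and the 13 Schwann markers summed to 4548 CPM, within the range of 1432 to 7226 CPM over the 10 mice. The part of these cells and markers in the values was not tested.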

How the results depend on the processing

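Of 319 values of the 8 genes under alternatives, 304 kept their direction and their side of the threshold, 8 lost a call, 2 gained one and 5 changed sign, none of the last being a call; all 64 alternative levels moved by less than 1 SD. Some of these alternatives repeat the main fit, so their agreement was fixed in advance. By phase these are 10 cells per sum and leaving out #2, which that comparison did not hold. For neuroblast-like against ganglion-like cells 10 cells per sum repeats the main fit too. In both comparisons of a neural class with Schwann-like cells these settings are the same fit as each other. *Vim* between neuroblast-like and ganglion-like cells changed sign with no replicate block (-0.059), without #2 (-0.012) and with log-normalized clustering (-0.070). *Nefh* by phase changed sign with log-normalized clustering (0.50) and with *Npy*-positive cells left out (0.17). *Nefl* between Schwann-like and endothelial-like cells was called with DESeq2 (2.16, adjusted p = 0.0473) and with no filter (1.24, adjusted p = 0.0187); over all its alternatives adjusted p ranged from 0.0187 to 0.622. Without the replicate block, the pairing of sums by mouse, calls fell from 6020 to 3821 genes (neuroblast-like against Schwann-like), from 3901 to 2079 (ganglion-like against Schwann-like) and from 1987 to 959 (Schwann-like against endothelial-like), where calls among the 8 genes fell from 3 to 1, fewer genes passing the filter in that fit; the *Vim* call by phase was lost (adjusted p = 0.0627). With no filter 6998 genes were called for ganglion-like against Schwann-like and 3426 for Schwann-like against endothelial-like cells. With *Npy*-positive cells left out the phase comparison called 1458 genes in place of 2965. The *Prph* share difference fell short of the threshold with high doublet scores removed (4.35 points) and with 2 transgene UMIs required (3.08 points). In 5 other settings exact permutation p was 0.0117 to 0.0391. The setting without #2 is counted among these and repeats the main test, which did not hold #2. With DESeq2 size factors the median of all genes moved from -0.006 to 0.20 (neuroblast-like against Schwann-like) and from -0.12 to 0.15 (ganglion-like against Schwann-like); the members called there differed by 1.98 or more in size and kept their direction. *Gfap* had 8 UMIs or fewer in every class, which limits what can be said of its order.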

Other observations

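Myofibroblast-like cells, the contractile cells of the vessel wall, carried some *Prph*. Their level was 201 ± 151 CPM (n = 9, 23 UMIs in all), against 113 ± 80.4 CPM in Schwann-like and 38.3 ± 40.0 CPM in endothelial-like cells, with SDs larger than the gap to the Schwann-like level. After thinning to 1000 UMIs 9 of 38 such cells had a *Prph* UMI. The 14 ganglion markers summed to 1590 ± 663 CPM in these cells and 1989 ± 590 CPM in Schwann-like cells, and *Dbh* and *Snap25* were at 0 in the myofibroblast-like cells. No test was run on these values. *Nes* stood at 67.3 ± 67.4 CPM there on 7 UMIs.

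A cluster of 27 cells that no marker list named, 12 of them from the 6-week-old mouse, held 4197 CPM of *Prph* in the 1 3-week-old mouse with enough cells.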
